A study of Mus musculus with 6 samples.

Results

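The microglia and macrophage genes described here are 36 genes of the cerebral cortex arrays, out of 18193 genes that the array names through probe sets with 1 symbol. They were chosen by name, as genes that mark the tissue macrophages of the brain and their activation, and they were found on 51 of 45037 probe sets by platform symbol. Each gene was read from its brightest probe set, the one with the highest mean over all arrays. For 30 of the 36 that probe set lay above the filter on low values, a mean equal to a signal of about 36.6, and was tested. The other 6 genes (Hpgds, Itgam, Itgb2, Cd86, Ccl3 and Ccl4) lay below it and are given as values only.

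Total RNA of mouse cerebral cortex had been measured on 6 Affymetrix expression arrays, 3 labelled wild type and 3 labelled as a double knockout of Egr1 and Egr3. Both genes encode zinc finger transcription factors that neurons induce with activity. The labels name no strain, age, sex, targeting strategy or batch. Separate animals within a group are not stated either. Sex-linked transcripts, given below, set double knockout replicate 2 apart from the other arrays of its label. The p-values cover the spread between arrays alone, which elsewhere may be technical. For double knockout replicate 1 the genotype stands in the description alone, since its title has the wording used for the wild type arrays.

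Microglia are the resident macrophages of the brain. They depend on signalling through the receptor Csf1r and on transforming growth factor beta, and the transcription factor PU.1, encoded by Spi1, is required for their development. In the healthy brain they express a homeostatic set of surface genes, among them P2ry12, Tmem119 and Cx3cr1. Activation by injury or infection is known to lower that set and to raise antigen presentation, chemokine and lysosomal genes. The members were therefore ordered as homeostatic genes, the C1q complement chains, immune receptors and their adaptors, genes of leukocyte and myeloid identity, genes of lysosome, endosome and oxidase, and activation genes.

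The arrays were alike in brightness, with medians from 36.2 to 39.5 signal units. The Egr3 signal went with the label, at 1189, 2669.6 and 924 in wild type replicates 1, 2 and 3 and 339, 369.9 and 507 in double knockout replicates 1, 2 and 3. The Egr1 signal did not, at 1247, 2054 and 1429.6 against 2116, 2647 and 2657, so the group is called by its label. Whether either probe set lies inside the targeted part was not analysed here. Neuronal markers were bright, with Snap25 between 5044 and 7466. In double knockout replicate 2 the signal of Xist, the transcript of the inactive X chromosome, was 3139.8, whereas no other array exceeded 42.5. The Y-linked Eif2s3y read 0.63 on that array and at least 382.7 on every other array. In wild type replicate 1 the spiked hybridisation controls stood at 0.406 times their median elsewhere. A sign of RNA quality, 3' over 5' signal of Gapdh, in wild type was 0.842, 0.806 and 0.873, against 0.922, 0.95 and 0.881 under the double knockout label, without overlap. The same ratio of Actb was 1.58, 1.67 and 1.95 against 1.89, 1.68 and 1.75, with overlap. The part of RNA quality in the results was not tested.

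Most of these genes read lower in the arrays labelled double knockout. The mean log2 signal was lower for 33 of the 36, against 47.6% of all genes, and the median log2 difference was -0.39, against 0.01 over all genes. All 3 arrays labelled double knockout lay below all 3 wild type arrays for 12 of the 36, where the same held for 8.91% of all genes, and 0 of the 36 lay above all 3, against 10.1%. Of the 36 genes 2 fell past a limma adjusted p of 0.05, Ly86 and Nrros, none rose, 28 did not pass and 6 were not tested. Over all genes with a tested brightest probe set 0.715% fell and 1.22% passed in either direction, and over all tested probe sets these shares were 0.591% and 1.02%. At an unadjusted p under 0.05, 13 members were lower, against 8.84% of tested genes and 8.33% of tested probe sets. No member passed when wild type replicate 1 or 3 or double knockout replicate 2 or 3 was left out (10 to 11 had an unadjusted limma p under 0.05). In whole tissue, the number of microglia and the RNA per microglial cell cannot be told apart, and whether either differed was not tested. The lower reading did not extend to a further list of 22 measured microglia-enriched genes. Of these 11 were lower and 11 higher, with a median log2 difference of 0.01. The 36 members were picked with earlier results of these arrays known, so their counts describe the list and are no test of it.

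**Figure D1:**
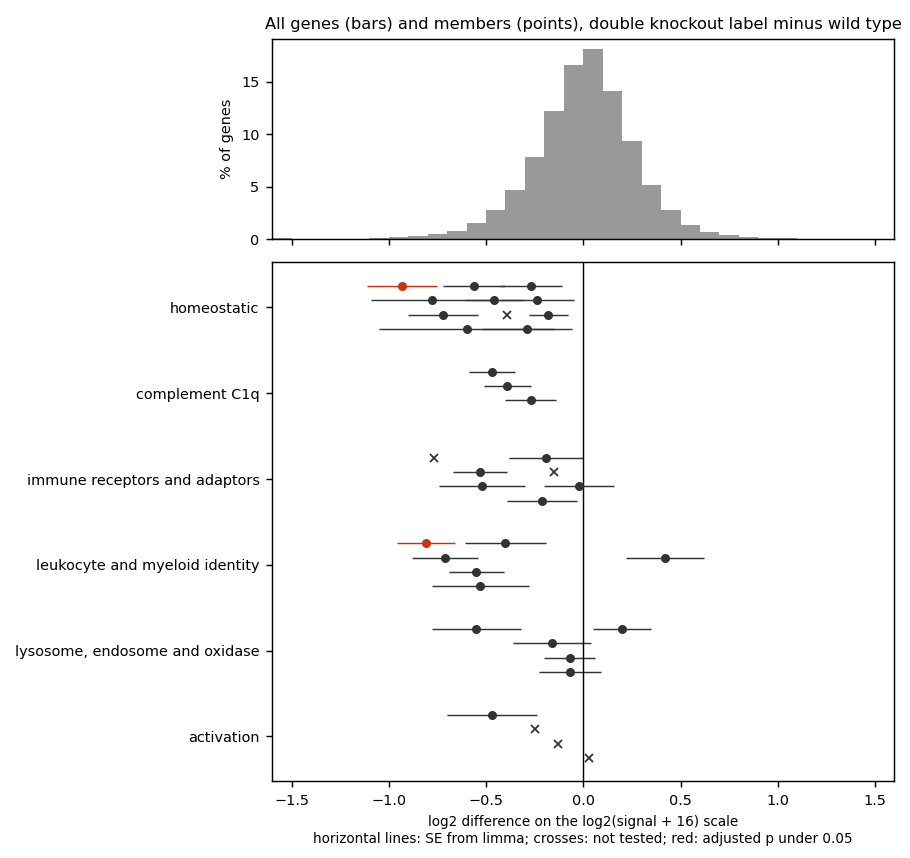
The upper panel shows the share of all 18193 genes in each step of the log2 difference (double knockout label minus wild type, on the log2(signal + 16) scale; values beyond the axis are in the end bars), and the lower panel the 36 members by role with the SE from limma as horizontal lines. All genes centre near 0 with a median of 0.01, whereas 33 members lie to the left of 0, Ly86 and Nrros (red) past the adjusted threshold.

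The difference was uneven among the arrays labelled double knockout. In replicate 1, 14 of the 36 genes read below the lowest wild type array, against 24.7% of all genes. In replicates 2 and 3 these counts were 25 and 28, against 26.7% and 25.6% of all genes. The median difference from the wild type mean over the 36 genes was -0.07 in double knockout replicate 1, -0.47 in replicate 2 and -0.44 in replicate 3. In wild type replicates 1, 2 and 3 it was 0.11, -0.10 and -0.03. By this median double knockout replicate 1 lay among the wild type arrays. By the summed signal of the 36 genes, in which bright genes weigh most, the groups did not overlap. That sum was 5979 to 7286 in wild type and 4501 to 5862 under the double knockout label. The lowest array of a gene was double knockout replicate 2 for 15 genes and replicate 3 for 13, and the highest was wild type replicate 1 for 23. With both the array of dim controls (wild type replicate 1) and that with Xist (double knockout replicate 2) left out, 29 of the 36 genes were lower, the median was -0.23 and no member passed (6 had an unadjusted limma p under 0.05). With the mean of all probe sets of a gene the median was -0.28, and with a pseudocount of 64 it was -0.25.

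**Figure D2:**
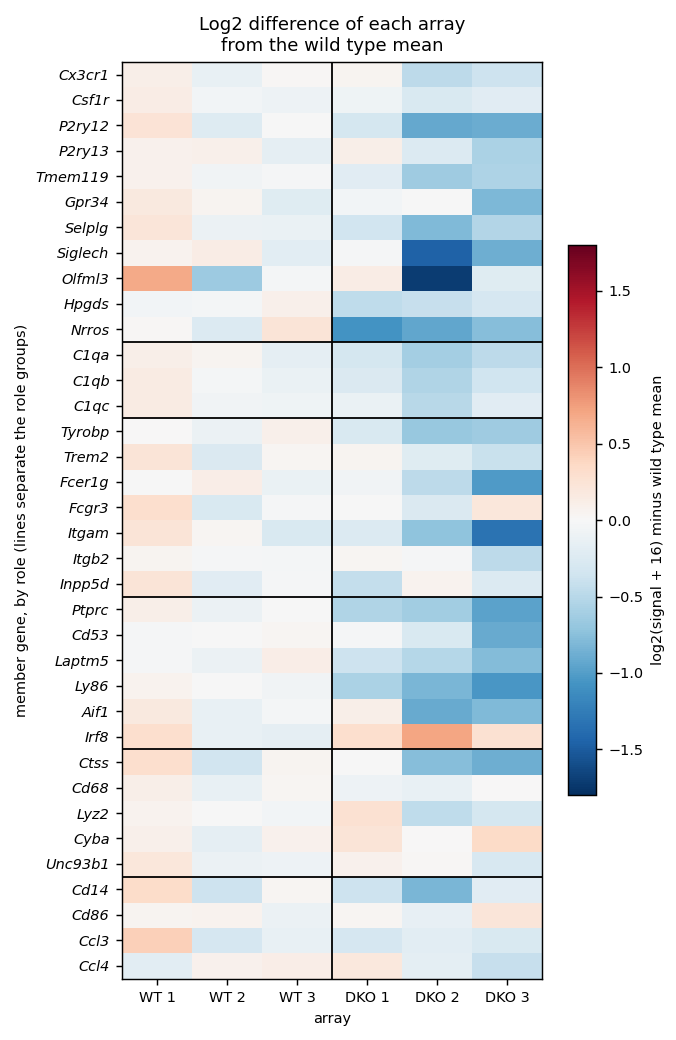
Each row is a member gene and each column an array (WT, wild type; DKO, double knockout label), and the colour gives log2(signal + 16) minus the wild type mean of that gene. Blue cells gather in double knockout replicates 2 and 3, with medians of -0.47 and -0.44, while replicate 1 is paler at -0.07. Under the double knockout label the cells of Irf8 are red, and those of Cyba are pale red in replicates 1 and 3 and near white in replicate 2.

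Among the homeostatic genes all 11 had a lower mean, with a median log2 difference of -0.46, and 1 of them fell. Nrros encodes a membrane protein that anchors latent transforming growth factor beta on microglia. Its signals were 66.9, 53.3 and 79.8 in wild type replicates 1 to 3, against 22.8, 26.7 and 32.2 under the double knockout label. Values of the other genes are given in the same order of arrays. All 3 arrays of that label, replicate 1 included, lay below every wild type array. The means were 66.7 ± 13.2 (SD, n = 3) and 27.2 ± 4.74 (SD, n = 3), and the log2 value fell by 0.93 (SE 0.18, adjusted p from limma 0.0457). The signals under the double knockout label lay below the filter value of 36.6, and the size depended on the pseudocount, with -1.26 at a pseudocount of 1 and -0.51 at 64. The Nrros call held without wild type replicate 2 and was lost when any other array was left out, with adjusted p from 0.0993 to 0.161 in those 5 fits.

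P2ry12, a purinergic receptor by which microglial processes sense nucleotides, read 385, 272 and 321 against 255, 162 and 166. Its groups did not overlap, and double knockout replicate 1 stood close to wild type replicate 2. On the log2 scale it differed by -0.72 (SE 0.18, limma adjusted p = 0.103). Without double knockout replicate 1 it was -0.91 and passed (adjusted p = 0.0472), over a range of 0.0472 to 0.445 in all alternatives. Selplg, the ligand of P-selectin, read 191, 149 and 148 against 124, 86.3 and 107, again without overlap (log2 -0.56, SE 0.16, limma adjusted p = 0.133). Tmem119, a transmembrane protein that marks microglia, read 146, 131 and 135 against 118, 82.7 and 88.7. In each of these 3 surface genes double knockout replicate 2 was the lowest array and wild type replicate 1 the highest.

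Siglech, a sialic acid-binding lectin, read 57.1, 61.2 and 45.4 against 53.4, 9.51 and 22.3. Double knockout replicate 1 lay within the wild type values, and replicates 2 and 3 lay far below them. Olfml3, a secreted olfactomedin-like protein, read 210.3, 73.7 and 122 against 138, 26.9 and 106. Its wild type arrays differed among themselves more than the groups did, and its difference of -0.60 turned to 0.30 when wild type replicate 1 and double knockout replicate 2 were left out. Cx3cr1, the receptor of the neuronal chemokine fractalkine, read 177, 147 and 166 against 169, 113 and 122, with double knockout replicate 1 inside the wild type range. A dimmer Cx3cr1 probe set, not tested, differed by 0.02.

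Csf1r, the receptor on which microglial survival depends, had the smallest difference of the homeostatic genes. It read 1750.1, 1540.2 and 1497 against 1513, 1319 and 1381 (log2 -0.18). Its dimmer probe sets differed by -0.25 and -0.29, and none of the 3 passed, although the groups did not overlap on the dimmest. P2ry13, a second purinergic receptor, read 106, 108 and 87.9 against 109, 82 and 62.1, and Gpr34, a receptor of lysophosphatidylserine, 85.5, 76.6 and 60.7 against 70.7, 72.8 and 35.3. For both, double knockout replicate 3 was the lowest array, and replicate 1 was not below the wild type arrays. Hpgds, a prostaglandin D synthase and below the filter, read 22.7, 23.1 and 26.6 against 13.1, 14.1 and 16.6, without overlap.

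The 3 chains of C1q, the recognition molecule that starts the classical complement pathway, shared an order over the arrays. C1qa read 448, 430.1 and 371 against 329.9, 267 and 295. C1qb read 449, 391 and 371 against 333, 272 and 310.5, and C1qc 359, 309 and 305 against 296, 225 and 279. For each chain all 3 arrays labelled double knockout lay below all 3 wild type arrays, with replicate 1 highest and replicate 2 lowest. The log2 differences were -0.47 (SE 0.12, limma adjusted p = 0.107), -0.39 (SE 0.12, adjusted p = 0.16) and -0.27 (SE 0.13, adjusted p = 0.33), so none passed. On the other C1qb probe sets the groups overlapped, with differences of -0.36 and -0.24.

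**Figure D3:**
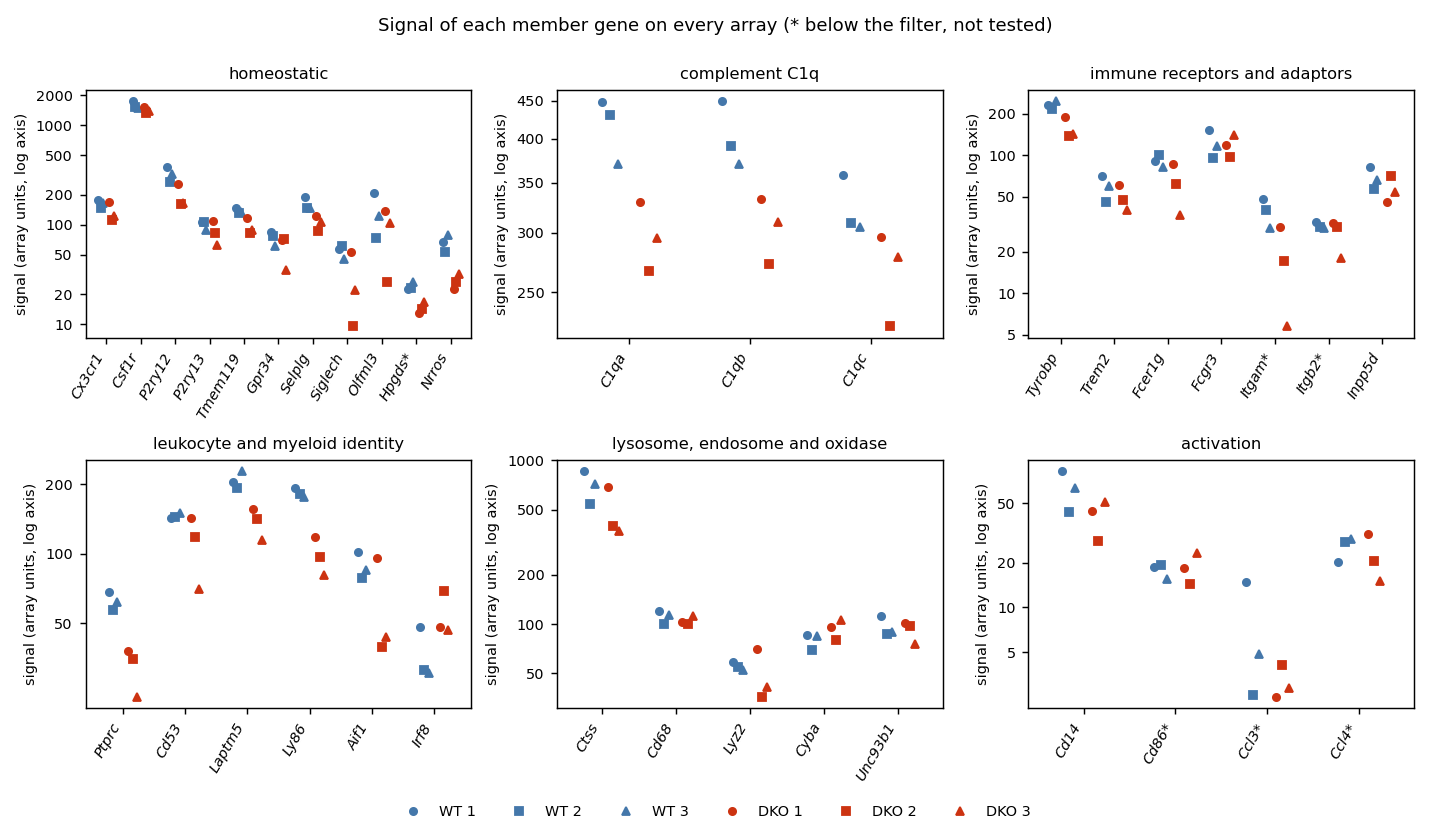
Signals of all 36 members on each array, on a log axis in array units, grouped by role (blue, wild type; red, double knockout label; circle, square and triangle, replicates 1, 2 and 3; an asterisk marks genes below the filter). The 3 C1q chains, Nrros, Ptprc, Laptm5 and Ly86 show all red points below all blue points, while Cd68, Fcgr3 and Unc93b1 show them mixed.

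Of the 7 immune receptors and adaptors none passed, 5 were tested, and the median log2 difference was -0.21. Tyrobp, also called DAP12, is the adaptor that carries signals of Trem2 and related receptors. It read 233, 215 and 247 against 188, 138 and 142, without overlap (log2 -0.53, SE 0.14, limma adjusted p = 0.111). Its partner Trem2, a receptor for lipids and cell debris, read 70.8, 45.6 and 59.8 against 60.8, 47.5 and 39.8, which overlapped (log2 -0.19). A much dimmer Trem2 probe set, not tested, read 4.55, 3.71 and 1.61 against 2.37, 27.8 and 20.6, the opposite direction.

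Fcer1g, the signalling chain shared by Fc receptors, read 90.0, 101 and 82.6 against 86, 61.4 and 36.6 (log2 -0.52, SE 0.22, limma adjusted p = 0.287). Double knockout replicate 1 lay inside the wild type range and replicate 3 was the lowest array. Fcgr3, a low-affinity receptor of immunoglobulin G that pairs with this chain, read 151, 95.7 and 117 against 118, 97.5 and 141, with a log2 difference of -0.02. The sign of that difference turned when wild type replicate 1 (0.13), double knockout replicate 2 (0.10) or both (0.25) were left out. Inpp5d, the lipid phosphatase SHIP-1 that restrains such receptors, read 81.8, 56.4 and 65.8 against 45.7, 70.9 and 54.3 (log2 -0.21, SE 0.18, limma adjusted p = 0.621). On its second probe set the difference was 0.20.

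The integrin chains Itgam and Itgb2, which together form complement receptor 3, were below the filter. Itgam read 48.3, 40.0 and 29.5 against 30.1, 17.1 and 5.73, and Itgb2 32.6, 30.2 and 29.9 against 32.1, 30.0 and 17.9. For Itgb2 only double knockout replicate 3 stood apart, and for Itgam replicates 2 and 3 were the lowest arrays.

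The genes of leukocyte and myeloid identity held the other call and the largest median difference of the 6 role groups, -0.54, with 5 of 6 lower. Ly86, also called MD-1, encodes a secreted partner of the Toll-like receptor homologue RP105. It read 193, 182 and 175 against 118, 96.8 and 80.5. The wild type arrays were tight and every array of the other label was far below them. The means were 183 ± 8.82 (SD, n = 3) and 98.4 ± 18.8 (SD, n = 3), and the log2 value fell by 0.81 (SE 0.15, adjusted p from limma 0.0389). The Ly86 call held without double knockout replicate 1 (adjusted p = 0.0371) and was lost without any other array, with adjusted p from 0.0574 to 0.156 in those 5 fits.

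Ptprc, the leukocyte phosphatase CD45, read 68.4, 56.9 and 62 against 37.8, 34.9 and 24, without overlap (log2 -0.71, SE 0.17, limma adjusted p = 0.0894). Laptm5, a lysosomal membrane protein of blood and myeloid cells, read 204, 192 and 227 against 156, 141 and 114, also without overlap (log2 -0.55, SE 0.14, limma adjusted p = 0.101). Its 5 probe sets did not run together: the second tested differed by -0.16, and the 3 below the filter by -0.71, 0.15 and 0.44. Aif1, which encodes the microglial stain Iba1, read 101, 78.2 and 84.8 against 95.4, 39.3 and 43.7, and Cd53, a tetraspanin of leukocytes, 142, 144 and 149 against 143, 118 and 70.3. In both genes double knockout replicate 1 was within the wild type range.

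Irf8, a transcription factor of the myeloid lineage, was the member with the largest difference in the other direction. It read 48.4, 31.3 and 30.4 against 48, 68.9 and 46.7 (log2 0.42, limma adjusted p = 0.315), so wild type replicate 1 overlapped and the test was not passed. A dimmer Irf8 probe set, below the filter, read 15.7, 18.1 and 8.83 against 25.8, 45.3 and 45.5, where every array labelled double knockout was higher.

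Genes of lysosome, endosome and oxidase had a median log2 difference of -0.07, and none of the 5 passed. Ctss, the lysosomal protease cathepsin S, read 856, 541 and 719 against 690.4, 399.8 and 369 (log2 -0.55, SE 0.23, limma adjusted p = 0.264). Replicates 2 and 3 of the double knockout label were below every wild type array and replicate 1 was not. Cd68, a lysosomal glycoprotein often used as a marker of phagocytic activity, read 120.5, 100.4 and 114 against 103, 101 and 112. Unc93b1, which delivers Toll-like receptors to endosomes, read 112, 87.4 and 89 against 101, 97.4 and 75.3. Both were mixed over the groups, with log2 differences of -0.07 and -0.07, and both took the other sign in some subsets of the arrays. Leaving out wild type replicate 1 together with double knockout replicate 2 gave 0.01 for Cd68. For Unc93b1 the value was 0.03 with wild type replicate 1 left out and 0.05 with double knockout replicate 3 left out.

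Lyz2, lysozyme of myeloid cells, read 58.3, 54.5 and 52.4 against 70.3, 35.9 and 41.1 (log2 -0.16, SE 0.20, limma adjusted p = 0.736), with double knockout replicate 1 the highest array of all. Its difference was 0.02 when wild type replicate 1 and double knockout replicate 2 were left out. Cyba, the p22phox subunit of the phagocyte oxidase, read 85.2, 69.3 and 84.4 against 96.4, 79.9 and 105 (log2 0.20, SE 0.15, limma adjusted p = 0.558). It and Irf8 were the tested members with a higher mean in the arrays labelled double knockout.

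The activation genes were dim, and 3 of the 4 lay below the filter. Cd14, the coreceptor for bacterial lipopolysaccharide, read 81.9, 44 and 63.3 against 44.1, 27.8 and 51.3 (log2 -0.47, SE 0.23, limma adjusted p = 0.337), and its groups overlapped. Cd14 lies within 5 Mb of Egr1 on chromosome 18 in the RefSeq table of assembly GRCm38.p6, and no other member lies within 20 Mb of either targeted gene. The costimulatory molecule Cd86 read 18.8, 19.3 and 15.4 against 18.5, 14.4 and 23.2. The chemokines Ccl3 and Ccl4 read 14.8, 2.59 and 4.83 against 2.5, 4.1 and 2.86, and 20.2, 27.5 and 28.7 against 30.9, 20.6 and 15. None of these 3 exceeded a signal of 30.92 on any array, their groups overlapped, and no test was made of them.

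The homeostatic and activation genes were set against each other on each array, as a description with no test. The activation median rests on 4 genes, 3 of them below the filter, where the pseudocount of 16 shrinks log2 differences, so a smaller median there is no sign of a smaller change. The homeostatic median minus the activation median was -0.08, 0.06 and 0.01 in wild type replicates 1, 2 and 3. In double knockout replicates 1, 2 and 3 it was 0.07, -0.46 and -0.31, so the groups overlapped through replicate 1. Adding Cd68, Lyz2, Trem2 and Tyrobp to the activation genes gave 0.03, 0.05 and -0.06 for wild type against -0.04, -0.44 and -0.25. Over all arrays the median log2 difference was -0.46 for the homeostatic and -0.19 for the activation genes. At a pseudocount of 1 these medians were -0.63 and -0.42, and at 64 they were -0.34 and -0.07, with the homeostatic median the lower at each.

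The promoters of the members were searched for the letters GAGGAAG, part of the sequence bound by PU.1. Both strands of the 250 bases before each start site in RefSeq (build GRCm38.p6) were used. A window was at hand for 25 of the 36 genes, with 28 windows in all. The letters stood in 9 of these windows (32.1%), of 8 genes, against 10.6% of 32851 windows of all genes. For comparison the letters GTGGGCG, part of the sequence bound by Egr factors, stood in 2 member windows (7.14%), those of Cd68 and Fcer1g, against 7.02% of all. The 100 bases around the PU.1 letters are shown for the 4 matched genes with the smallest limma p. The letters are in capitals to show where they lie (CTTCCTC where they lie on the other strand).
Laptm5, chr4:130913216-130913315, plus strand: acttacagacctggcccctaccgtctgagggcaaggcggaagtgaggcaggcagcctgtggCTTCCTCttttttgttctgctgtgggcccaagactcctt
C1qc, chr4:136893056-136893155, minus strand: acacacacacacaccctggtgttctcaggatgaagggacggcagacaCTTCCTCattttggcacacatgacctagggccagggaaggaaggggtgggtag
P2ry13, chr3:59210883-59210982, minus strand: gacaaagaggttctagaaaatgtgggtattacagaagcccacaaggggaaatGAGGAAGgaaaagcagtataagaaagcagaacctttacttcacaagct
Inpp5d, chr1:87620212-87620311, plus strand: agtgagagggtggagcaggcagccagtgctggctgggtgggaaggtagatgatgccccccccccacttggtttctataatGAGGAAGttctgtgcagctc
A match is a description of letters and no sign of binding. In Laptm5 the letters begin 39 bases before the start site, in C1qc 194, in P2ry13 48 and in Inpp5d 20. Of these genes only Laptm5 and C1qc had groups that did not overlap, and no call was made for any of the 4. Both motifs were chosen by name and do not overlap each other.

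Of 14 genes for signals to microglia none passed, 13 were tested, and the median log2 difference was -0.11 (2 had an unadjusted limma p under 0.05). Il34, a ligand of Csf1r made by neurons, read 224, 218 and 190.3 against 195, 195 and 193, and Csf1, its other ligand, 94.7, 79.4 and 77.6 against 109, 93.4 and 79. The smallest p belonged to Tgfbr1, a receptor of transforming growth factor beta (259, 254 and 258 against 208, 216 and 196), whose groups did not overlap, and to Cx3cl1, the ligand of Cx3cr1 (2329, 2283 and 1815 against 1441, 1974 and 1644), with overlap. Of 12 measured myeloid transcription factors none passed, 3 were lower and the median was 0.09 (2 had an unadjusted limma p under 0.05). Sall1, a factor of microglial identity, read 97.1, 118 and 152 against 92.8, 68.7 and 81.3, without overlap. Spi1 itself read 51.7, 31.9 and 31.6 against 23.5, 62.1 and 38, with no order between the groups. Mef2a, also a neuronal factor, read 716, 879.8 and 793 against 991, 1158 and 998, higher in every array labelled double knockout.

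Among 22 measured further genes known from microglia, 11 were lower and 11 higher, and the median was 0.01. Of these 12 were tested and 1 passed (3 had an unadjusted limma p under 0.05). Rgs10, a regulator of G-protein signalling that neurons also express, fell from 378 ± 12.2 to 257 ± 17.6 (SD, n = 3 each; log2 -0.53, SE 0.11, limma adjusted p = 0.0493). Fcrls, an Fc receptor-like gene enriched in microglia, read 176, 194 and 159.9 against 121, 42.7 and 32.8. That is the pattern of Siglech and P2ry12, with double knockout replicate 1 nearest to wild type (log2 -1.39, limma adjusted p = 0.0754). In the other direction, Cst3 read 5273, 5051 and 5984 against 6570, 6755 and 6546, higher in every array labelled double knockout. Its log2 difference was 0.29 (limma adjusted p = 0.226). Crybb1 read 123, 85.3 and 101 against 139, 143 and 115 (log2 0.33), with overlap.

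None of the genes in the lists of disease-associated activation, inflammation and further complement passed. Of 16 measured genes of disease-associated activation, 9 were lower, the median was -0.05 and none passed (6 had an unadjusted limma p under 0.05). Apoe, a lipoprotein that astrocytes make in quantity, read 4912, 4428 and 6115 against 7588, 6539 and 7232, and Timp2, a protease inhibitor, 1813, 1698 and 2455 against 2965, 2657 and 2711. Both were higher in every array labelled double knockout, with limma adjusted p of 0.132 and 0.128. Of this list 4 genes lay above and 3 below every wild type array in all 3 such arrays (10.1% and 8.91% over all genes). Ctsz and Ctsd, among those below, differed by -0.44 and -0.23. Of 17 inflammatory mediators only 3 were above the filter and none passed (2 had an unadjusted limma p under 0.05). Ptgs2, a cyclooxygenase that cortical neurons express, read 54.8, 98 and 65.5 against 24.6, 20.1 and 40.3, and Socs3, an inhibitor of cytokine signalling, 33.1, 36.7 and 17.9 against 49.3, 46.2 and 50.3, neither with overlap. In the complement list beyond C1q none of 8 measured genes passed and 0 had an unadjusted limma p under 0.05, and its tested genes with the smallest p, Serping1 and Cr1l, differed by 0.16 and 0.06.

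Markers of other cells were read beside these. Macrophages of the brain borders share many of the 36 genes, and 8 of their 9 markers were lower, with a median of -0.21 and none past the threshold (0 had an unadjusted limma p under 0.05). Their summed signal was 315 to 339 in wild type and 265 to 279 under the double knockout label, without overlap, and no marker exceeded 72.7. Mrc1 read 69.6, 52.2 and 61.4 against 62.2, 32.9 and 45.5, and Stab1 42.2, 37 and 45.4 against 28.7, 28.5 and 40.4. Their part in the result was not tested. Markers of monocytes and neutrophils (8 measured) and of T and B cells (7 measured) were all below the filter, with no signal above 28.4 and 40.9. Among the red blood cell markers Alas2, the only tested one of 3, read 58.1, 67.1 and 65.2 against 38.3, 74.5 and 26.8.

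Lists for the other cortical cell types had other medians over the arrays, a difference that was not tested. Median differences from the wild type mean in double knockout replicates 1, 2 and 3 were -0.03, 0.01 and 0.01 for 10 astrocyte genes, 0.36, -0.27 and 0.20 for 9 oligodendrocyte genes and 0.15, 0.25 and 0.06 for 12 neuronal genes. For the 36 members they were -0.07, -0.47 and -0.44. The 22 further microglia-enriched genes did not share that pattern, with 0.05, 0.03 and -0.05. For the 12 myeloid transcription factors the medians were 0.13, 0.27 and 0.01. Over the groups the medians were -0.06 for astrocytes, 0.13 for oligodendrocytes, -0.18 for 6 genes of their precursors, -0.09 for 12 genes of endothelium and pericytes and 0.11 for neurons. Among the astrocyte genes Aqp4, the water channel of astrocyte endfeet, fell from 967 ± 7.67 to 495 ± 100.3 (SD, n = 3 each; log2 -0.96, SE 0.14, limma adjusted p = 0.0139). No other gene of these lists passed (an unadjusted limma p under 0.05 was met by 5 astrocyte genes with Aqp4 and by 2 oligodendrocyte, 3 precursor, 1 vascular and 4 neuronal genes). Those astrocyte genes besides Aqp4 went both ways, with -0.83 for Gfap and -0.52 for S100b but 0.58 for Gjb6 and 0.38 for Slc1a3. The astrocyte median near 0 is therefore no sign of unchanged genes. The log2 differences with the smallest p were 0.28 for Cnp and 0.37 for Mbp in oligodendrocytes, and -0.48 for Olig2 and 0.37 for Sox10 in precursors. For the vessels they were -0.63 for Rgs5 and 0.31 for Flt1, and for neurons -0.44 for Neurod6 and 0.32 for Rbfox3. The 7 choroid plexus genes, of which Clic6 and Folr1 differed by -0.61 and -0.77 and 0 had an unadjusted limma p under 0.05, stood out in wild type replicate 3, with a median of 1.50 there and of -0.85 to -0.60 in the other 5 arrays. Ttr, the thyroid hormone carrier transthyretin, read 71, 375 and 10347 against 4697, 37.5 and 34.6, and so was also high in double knockout replicate 1. The median of the 36 members was -0.03 in wild type replicate 3 and -0.07 in double knockout replicate 1, and the part of choroid plexus RNA in these values was not tested.

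**Figure D4:**
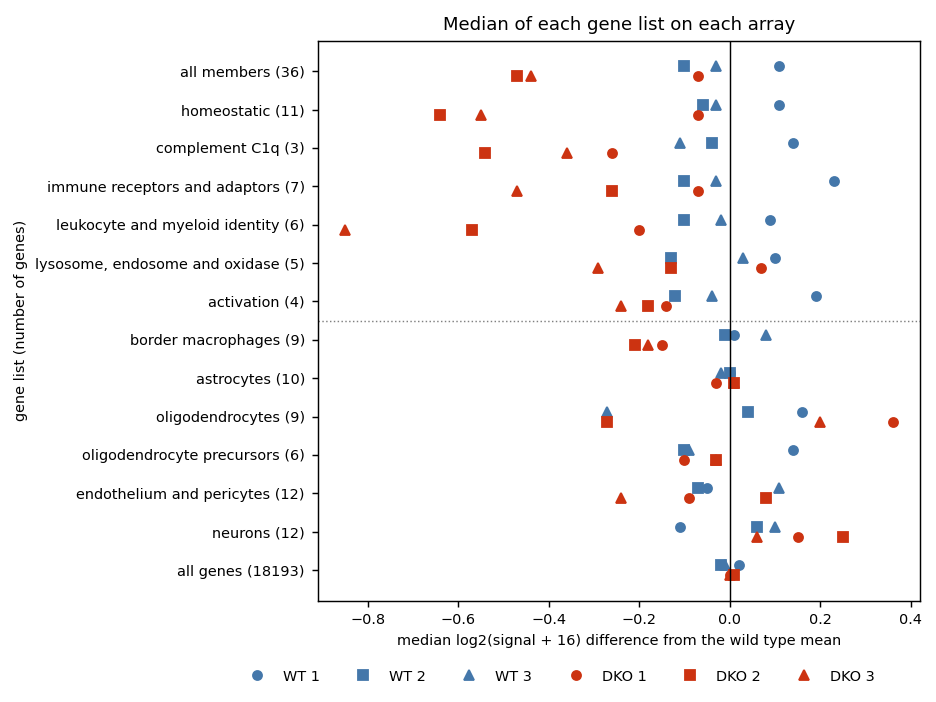
Median log2(signal + 16) difference from the wild type mean for each gene list on each array (blue, wild type; red, double knockout label; circle, square and triangle, replicates 1, 2 and 3), with the number of genes in brackets and the dotted line between the member groups and other lists. For the members, replicates 2 and 3 of the double knockout label stand at -0.47 and -0.44 and replicate 1 at -0.07. The list of 22 further microglia-enriched genes is not drawn, and its medians in replicates 1, 2 and 3 of that label were 0.05, 0.03 and -0.05. The astrocyte and all-gene medians stay near 0 on every array, the astrocyte one with single genes that differ in both directions.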

How the data were processed

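Total RNA of mouse cerebral cortex was measured on 6 Affymetrix arrays, 3 wild type and 3 labelled Egr1 and Egr3 double knockout, grouped by their descriptions. The authors deposited 1 linear intensity signal per probe set. Its summary method, software and scaling are not given in the sources used here. The mean after trimming 2% at each end was 149.4 to 149.6 on every array. The 45037 probe sets (64 control probe sets set aside) had 1 symbol for 34945, several for 932 and none listed for 9160, and symbols were updated by gene number in RefSeq. Signals under 1 were set to 1 and log2(signal + 16) was taken. Probe sets with a mean above the median of all (22518) entered a limma fit (limma 3.58.1, R 4.3.3) with group as the only term and an intensity trend, and two-sided p-values were adjusted by Benjamini-Hochberg over all of them. Exact permutation of 3 against 3 arrays cannot give a two-sided p under 0.1, so none was run. The fit was checked on simulated arrays, where it recovered 9.6% of log2 changes of 0.5, 62% of changes of 1 and 82% of changes of 2. A gene that did not pass may therefore still differ.

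The members and lists were chosen with earlier results of these data known. Every member is named. Fold and adjusted p are given for up to 3 genes of each role group with the smallest p and for calls, and other lists by their calls or their 2 smallest p. Outside this rule, Irf8 also has a fold and adjusted p, and some other members, such as Csf1r, Olfml3 and Trem2, a fold. The dimmer probe sets of members, Il34, Csf1, Spi1, Fcrls, Cst3, Crybb1, Ctsz, Ctsd, Gfap, S100b, Gjb6, Slc1a3, Snap25 and Ttr were named after their values were seen. Alternatives were other pseudocounts, quantile normalization, no filter or a filter at the 75% quantile, other variance trends, arrays left out, the replicate number as a block, averaging all probe sets per gene and a widened activation set.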

Additional observations from a re-analysis of the deposited data

How the results depend on the processing

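The lower mean of the members kept its direction throughout: 29 to 34 of the 36 genes were lower in every alternative, and the median lay between -0.47 and -0.23, that of the homeostatic genes between -0.63 and -0.34. The calls did not. The count of 2 member genes past the threshold was 0 with no filter (12 of 36 with an unadjusted limma p under 0.05), 0 with the stricter filter, which tests neither gene (6 of 8), 1 with no intensity trend and 0 without wild type replicate 1 and double knockout replicate 2 (6 of 30), and it ranged from 0 to 2 when an array was left out (10 to 18 of 30). The 229 probe sets past the threshold became 10 with no filter, 131 with no intensity trend and 12 without those 2 arrays, and 34 to 292 with 1 array left out. The 2 genes of the other lists, Aqp4 and Rgs10, became 1 with a pseudocount of 1, quantile normalization or no intensity trend, 0 with no filter and without those 2 arrays, and 0 to 3 with 1 array left out, being 0 without wild type replicate 1, 0 when double knockout replicate 3 was omitted and 1 when replicate 2 of that label was. The median of the activation genes was -0.42 at a pseudocount of 1 and -0.07 at 64, and -0.18 with the widened set. Signs turned for uncalled members only: with 1 array or that pair left out, Fcgr3 ranged from -0.16 to 0.25 (0.13 and 0.10 with 1 array out), Unc93b1 from -0.13 to 0.05 (also 0.03), Olfml3 from -0.96 to 0.30, Cd68 from -0.14 to 0.01 and Lyz2 from -0.38 to 0.02. Of the untested members, Cd86 (0.03) was -0.02 without wild type replicate 3 and -0.06 without double knockout replicate 3, and leaving out the latter gave 0.01 for Itgb2 and for Ccl4. The cause of these shifts was not tested, besides fewer probe sets or arrays. The groups share only replicate numbers. With the replicate number as a block 2 member genes passed, Ly86 and P2ry12, and 182 probe sets (16 of 30 members had an unadjusted limma p under 0.05). Deviations of same-numbered arrays from their group means correlated at -0.147, 0.0013 and -0.101 over the tested probe sets. With 3 arrays per group such correlations cannot exclude pairing, so whether the numbers pair the arrays is not known. Signals near or below the array medians, as in most activation genes, limit what can be measured.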
